A study of Mus musculus with 5 samples.

Results

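The genes described here encode the proteins of the cytosolic ribosome, chosen by symbol: Rpl or Rps followed by a number, together with Rplp0, Rplp1, Rplp2 and Rpsa. Of 28001 features in the gene list, 87 symbols matched and 85 reached at least 20 CPM in a library, where CPM is a gene's UMIs (molecules counted once each) scaled to a library total of 1000000. The other 2, the paralogs Rpl10l and Rpl3l, stayed under that level in all 5 libraries, at no more than 3.37 and 0.218 CPM. The 85 members comprise 34 symbols of the small (40S) and 51 of the large (60S) subunit. Rps19bp1, a binding protein of Rps19, and Rpl7l1, a relative of Rpl7, matched by symbol although neither is a standard structural ribosomal protein. The 16 rows named as processed copies (-ps) and the 10 kinase names beginning with Rps6k were not members.

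The cells came from hindlimb muscle of C57BL/6J mice in which both Hic1 alleles carried CreERT2, a tamoxifen-dependent recombinase, and 1 Rosa26 allele carried a tdTomato reporter behind a stop cassette. All 5 groups shared this genotype and had received 2.5 mg of tamoxifen in 100 uL of sunflower oil on each of 5 days from 8 weeks of age, followed by 10 days of washout. Cells labelled as mesenchymal progenitors were sorted without injury (quiescent) or 1, 2, 4 or 14 days after notexin, a snake venom phospholipase that destroys muscle fibres, and each time point was 1 library of 3′ single-cell RNA-seq. The label follows past Hic1-driven recombination and not current identity, and the number of mice in each library is not given in the sources used here.

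Each cytosolic ribosome joins a small subunit, which reads the mRNA, to a large subunit, which forms peptide bonds. Because the subunits are built with 1 copy of nearly every protein, cells usually make their ribosomal proteins in matched amounts. Most of these mRNAs begin with a run of pyrimidines, the 5′ terminal oligopyrimidine (TOP) tract, through which growth signals control their translation. In resident mesenchymal progenitors, leaving quiescence after injury brings cell growth and division, and ribosome production is part of growth.

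The barcodes kept numbered 2138, 4816, 2549, 4107 and 3475 in the quiescent, day 1, day 2, day 4 and day 14 libraries. They held 8011891, 44539781, 32807082, 32180783 and 17517641 unique molecular identifiers (UMIs), with medians of 3771.5, 8564, 10765, 6976 and 4748 per cell. All 7 progenitor markers, such as Pdgfra and Dcn, were detected in every library, at a summed 11799 (day 1) to 37112 CPM (quiescent). Endothelial and blood markers summed to no more than 29.96 and 11.2 CPM, and tenocyte markers to 287 (day 2) to 7019.9 CPM (day 14). Between 8 and 26 barcodes were shared by any pair of libraries. With 1 library per time point, time and library cannot be told apart, no test was possible, and all intervals below cover counting error only.

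Ribosomal protein transcripts made up a larger share of all UMIs at days 1 and 2 than in the other 3 libraries. The share was 15.14% for quiescent cells, with a 95% Clopper-Pearson interval of 15.12 to 15.17. It was 23.21% (23.20 to 23.23) on day 1 and 21.15% (21.13 to 21.16) on day 2, then 15.35% (15.34 to 15.36) on day 4 and 15.08% (15.06 to 15.09) on day 14. Across single cells the median share was 14.1%, 22.9%, 20.8%, 15.2% and 14.2% in the same order, and the ranges of cells overlapped widely. The middle 50% of quiescent cells lay between 11.2% and 17.8%, and that of day 1 cells between 19.6% and 26.1%, so these middle ranges did not overlap.

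**Figure D1:**
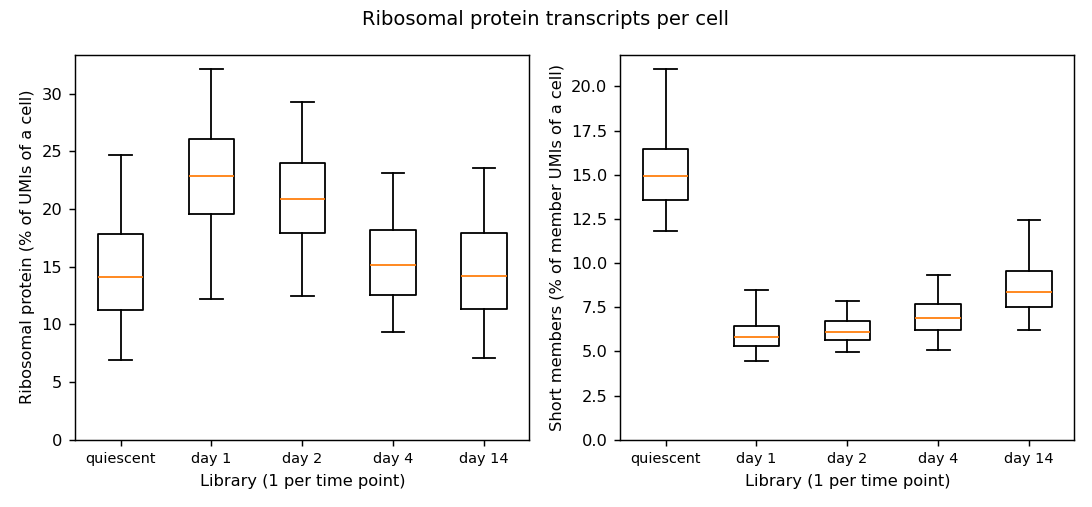
Box plots over the cells of each library of the share of a cell's UMIs from the 85 ribosomal protein genes (left, percent) and of the share of those UMIs that came from the 12 members with a coding length of at most 300 bases (right, percent). Boxes span the middle 50% of cells with the median as a line, and whiskers run from the 5th to the 95th percentile. On the left the day 1 and day 2 boxes stand highest, with medians of 22.9% and 20.8%; on the right the quiescent box (median 14.9%) lies above the boxes of all 4 injured libraries.

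In cells divided by marker genes, days 1 and 2 were again the highest libraries. In progenitor-marked cells, between 69.3% (day 14) and 95.6% (day 2) of each library, the share was 15.5%, 23.1%, 21.2%, 15.5% and 16.0%. Tenocyte-marked cells had 12.5%, 20.3%, 15.9%, 12.6% and 13.5%. Mural-marked cells, set by genes such as Rgs5 and Notch3, were lower in every library, at 7.64%, 11.2%, 12.7%, 10.2% and 9.32%. But they also held fewer UMIs per cell, with median depths between 1423 (quiescent) and 4659 (day 2). The part of this depth gap in their lower share was not tested. The day 2 tenocyte-marked and mural-marked groups had only 68 and 29 cells.

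At day 1 most members stood higher than in the quiescent library. By a fold rule (a 2-fold ratio, the higher of both levels being 20 CPM or more), 21 of 85 members were higher and 3 lower, where 14.8% of the 6081 genes compared were higher and 24.3% lower. The median log2 ratio of the members was 0.65, against -0.17 for all genes. It was 0.75 over small-subunit and 0.61 over large-subunit members, so the subunits had like medians. At a 1.5-fold limit 51 were higher and 12 lower, beside 25.6% and 36.8% of all genes. CPM is relative to the total. Scaling by TMM factors moved the all-gene median from -0.17 to 0.40, and that of the members to 1.24. With it 54 members were higher and 3 lower, beside 32.7% and 11.1% of all genes. DESeq2 size factors gave 56 and 3, beside 33.7% and 10.6%.

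At day 2, 11 members were 2-fold higher and 6 lower than in the quiescent library, beside 10.4% and 17.4% of all genes, with a median log2 ratio of 0.57 against -0.05 for all genes. At 1.5-fold these were 42 and 15, beside 24% and 30.6%. TMM scaling gave 34 higher and 5 lower, beside 20% and 10.6% of all genes, and DESeq2 size factors 36 and 5, beside 22% and 9.78%. At day 4 none was 2-fold higher and 9 were lower, beside 5.86% and 10% of all genes, and the median had come down to 0.10. At the 1.5-fold limit, 6 were higher and 20 lower at day 4, where 15.8% and 21.4% of all genes were called. TMM scaling gave 1 higher and 9 lower at 2-fold, beside 8.58% and 7.54% of all genes, and DESeq2 size factors 1 and 8, beside 8.97% and 7.32%.

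At day 14, 1 member was higher and 5 lower, beside 2.35% and 0.878% of all genes, and the median was 0.11. At 1.5-fold there were 2 higher and 11 lower, beside 5.35% and 4.85%. Most members were thus back near the quiescent level at day 14, and those called were mainly lower. All 4 comparisons share the quiescent library, so they are not independent of each other.

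A comparison of day 4 with day 2, which leaves out the quiescent library, showed 79 of 82 members compared lower at day 4. Of all genes compared, 2745 of 5565 were lower. The median log2 ratio of the members was -0.46 against 0.01 for all genes. Only Rps2 was 2-fold lower and none higher, beside 3.45% and 6.81% of all genes, while 18 members were 1.5-fold lower and none higher, beside 10.3% and 13.6%. The lower level at day 4 was therefore spread over nearly all members and modest for each but Rps2.

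The members with the highest ratios at days 1 and 2 came from both subunits. Rpsa (ENSMUSG00000032518, GRCm38 chromosome 9, 120127689 to 120132369), a small-subunit protein also known as a laminin receptor, was at 1164, 3130.1, 3167, 1900.0 and 1353 CPM in the quiescent, day 1, day 2, day 4 and day 14 libraries. Its level was 2.69 times the quiescent one at day 1 (95% interval 2.63 to 2.75) and 2.72 times at day 2 (2.66 to 2.78). Days 1 and 2 were thus its highest libraries, and day 14 lay just above quiescent.

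Rps6, the substrate of the S6 kinases downstream of mTOR, was at 2065, 5144, 4931, 3193 and 2098 CPM, 2.49 times the quiescent level at day 1 (2.45 to 2.53) and 1.02 times at day 14 (0.997 to 1.03), an excess that turned into a deficit with DESeq2 size factors. Rps3, which lies at the mRNA entry site, followed the same order, at 1718, 4268, 3928, 2392 and 1871 CPM. Of the ubiquitin fusion Rps27a, the values were 2639, 5136, 4534, 3053 and 2886 CPM. All 3 were highest at day 1 and lowest in the quiescent library. Rps19, a gene mutated in Diamond-Blackfan anaemia, was 2.05 times the quiescent level at day 1 (2.03 to 2.08) and still 1.51 times at day 4 (1.49 to 1.53).

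In the large subunit, Rpl3, which reaches into the peptidyl transferase centre, was at 1963, 4524, 4749, 3009 and 1889 CPM. Rpl10a was at 1347, 2841, 3217, 2001 and 1525 CPM. Both were higher at day 2 than at day 1. Rpl7l1 had the highest ratio of any member at day 1, 2.81 (2.55 to 3.10), from a much lower level of 55.0, 155, 113, 81.7 and 65.0 CPM. Rpl5 and Rpl11, which bind the 5S rRNA and can inhibit Mdm2, were 1.82 times (1.78 to 1.87) and 1.67 times (1.64 to 1.70) the quiescent level at day 1. Rpl5 then stood under its quiescent level of 968 CPM at day 4 (858 CPM) and day 14 (834 CPM), the former not so with DESeq2 size factors, and Rpl11 stayed above its own. Of the 50-base words in the last 300 transcript bases, Rps6, Rps27a, Rpl3, Rpl10a and Rpl5 share 76.49% to 100% with other genes, so their counts are uncertain. Rpsa, Rps3, Rplp0 and Rpl11 share none.

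The ribosomal stalk, which recruits elongation factors to the large subunit, was not uniform. Rplp0, its base, was at 2863, 6347, 7024, 5415 and 3251 CPM and had the highest ratio of the named members at day 4, 1.89 (1.87 to 1.92). Its partners were within 1.15 times the quiescent level at days 1 and 2 and lower than it at day 4. Rplp1 was at 2752, 3173, 2857, 1986 and 2588 CPM, and Rplp2 at 1982, 2171, 1958, 1366 and 1896 CPM. At day 4 their ratios to quiescent were 0.722 (0.711 to 0.733) and 0.689 (0.677 to 0.702), on the other side of 1 from that of Rplp0. Rplp1 and Rplp2 have coding lengths of 342 and 345 bases and Rplp0 one of 951 bases. Of the words at their transcript ends, Rplp1 and Rplp2 share 66.93% and 80.08% with other genes, whereas Rplp0 shares none. The counts of Rplp1 and Rplp2, and so their contrast with Rplp0, are uncertain.

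**Figure D2:**
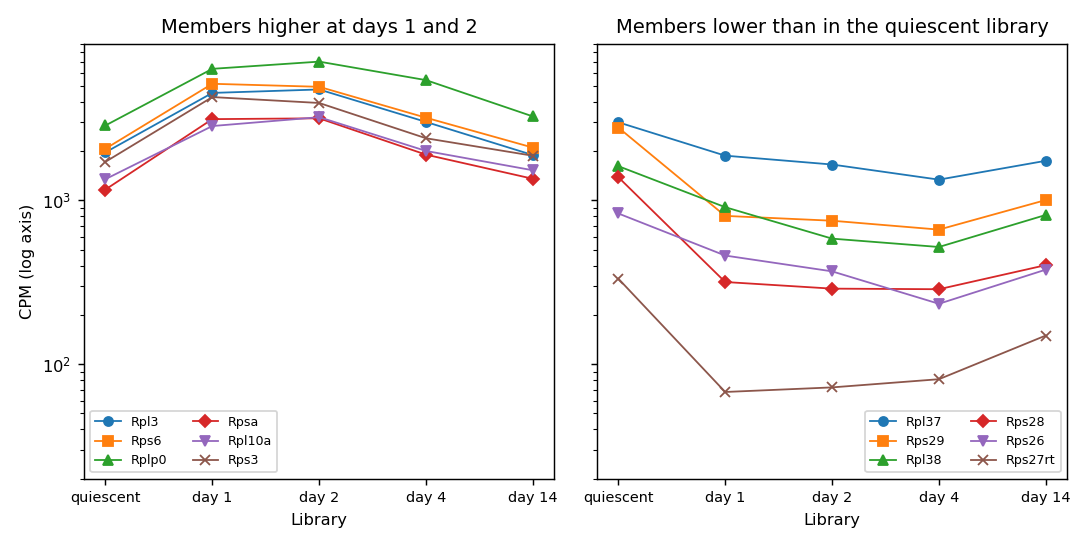
CPM on a log axis in each of the 5 libraries for 6 members that were higher at days 1 and 2 (left) and 6 that were lower than in the quiescent library (right), 1 point per library with lines only to guide the eye. On the left Rplp0 is lowest in quiescent cells (2863 CPM) and highest on day 2 (7024 CPM); on the right Rps28 is at 1384 CPM in the quiescent library and between 287 and 402 in the others.

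A second set of members stood lower after injury, and those at least 2-fold lower were mostly the genes with the shortest coding sequences. Of the 84 members with a coding transcript in GENCODE M21, 12 have at most 300 coding bases: Rpl41 (75), Rpl39 and Rpl39l (153 each), Rps29 (168), Rps28 (207), Rpl38 (210), Rps21 (249), Rps27, Rps27l and Rps27rt (252 each), Rpl37a (276) and Rpl37 (291). The limit of 300 bases was chosen after the values were seen, so the division is a description. The median log2 ratio of these 12 to quiescent was -0.85, -0.89, -1.05 and -0.83 for days 1, 2, 4 and 14. Over the 72 longer members it was 0.74, 0.67, 0.16 and 0.13. On days 1, 2, 4 and 14, 3, 4, 6 and 4 short members were 2-fold lower, and 0, 2, 3 and 1 longer ones. Of all genes, 24.3%, 17.4%, 10% and 0.878% were 2-fold lower. At day 1 the short members' share by this rule, 25%, was thus near that of all genes. By direction alone, 10, 11, 11 and 12 short members stood below quiescent, and 9, 12, 24 and 17 longer ones. Of all genes compared, 3383 of 6081, 3180 of 6108, 2954 of 6003 and 2833 of 5921 did.

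Of the short members, 10 of 12 had their highest level in the quiescent library, against 4 of 72 longer ones, of which 47 were highest at day 1. The highest library was not counted over all genes, so these counts have no background beside them. The exceptions were Rps27l, at 444, 939.9, 693, 501 and 436 CPM, and Rpl39l, a paralog best known from testis, at 20.5, 25.03, 17.8, 11.5 and 10.2 CPM. Under TMM scaling the short members' median stayed below 0 in each comparison with quiescent (-0.26 at day 1, -0.85 at day 14), but Rpl37a and Rpl41 crossed to the higher side at day 1.

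Rps28 (ENSMUSG00000067288, GRCm38 chromosome 17, 33819027 to 33824562), near the mRNA exit channel of the small subunit, was at 1384, 317, 289, 287 and 402 CPM. It was 4.36-fold lower at day 1 (4.25 to 4.47) and 3.44-fold lower at day 14 (3.34 to 3.55). Rps29 (ENSMUSG00000034892, chromosome 12, 69157722 to 69159186), a zinc-binding small-subunit protein, was at 2780.0, 803, 751, 663 and 1004 CPM, 3.46-fold lower at day 1 (3.40 to 3.52). For both, the quiescent library stood apart and the 4 injured libraries lay closer to each other than to it.

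Rps27rt (ENSMUSG00000050621, chromosome 9, 114982366 to 114982739), known as a retrogene of Rps27, had the lowest ratio at day 1: its CPM values were 333, 67.6, 72.1, 80.9 and 149.6. Rps27 itself was at 119, 64.0, 62.5, 69.5 and 101 CPM. These 2 rows are uncertain, because 88.45% and 100% of the 50-base words in the last 300 bases of their transcripts also occur in other genes.

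Rpl38, implicated in translation of Hox mRNAs, was at 1616, 908, 584, 519 and 814 CPM, 1.78-fold lower at day 1 (1.74 to 1.82) and 3.11-fold lower at day 4 (3.04 to 3.19). Rpl39, which lines the exit tunnel, was at 2646, 1425, 1738, 1375 and 1748 CPM. Rpl41, the shortest, was at 4872, 3627, 3769, 3057 and 2651 CPM. Rps21 was at 1270.1, 697, 655, 465 and 789 CPM. Rpl37, which shares no such word with another gene, was at 2994, 1873, 1654, 1337 and 1743 CPM. In each of these the quiescent library was the highest of the 5. Rpl38, Rpl41, Rps21 and Rpl39 share 65.34%, 62.95%, 36.25% and 21.91% of their end words with other genes, so their counts are uncertain.

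Some longer members shared the pattern. Rps26 (345 coding bases; ENSMUSG00000025362, chromosome 10, 128624534 to 128626747), which contacts the mRNA in the exit channel, was at 831, 460.2, 369, 234 and 378 CPM, 3.56-fold lower at day 4 (3.44 to 3.68) and 2.20-fold lower at day 14 (2.13 to 2.28). Rpl35 and Rpl36, named after their values were seen, were 1.56-fold (1.52 to 1.59) and 1.33-fold (1.31 to 1.36) lower at day 1, and under TMM scaling Rpl36 crossed to the higher side. Rps26, Rpl35 and Rpl36 share 62.55%, 96.02% and 89.24% of their end words with other genes, so their counts are uncertain.

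Within the member transcripts of a cell, the 12 short genes supplied 15.0% of UMIs without injury and 5.89%, 6.14%, 6.96% and 8.36% on days 1, 2, 4 and 14. This share is free of the total used for CPM, but it also falls when the longer members rise. Of all UMIs, the short genes made up 2.27%, 1.37%, 1.30%, 1.07% and 1.26% in library order. The longer members made up 12.8%, 21.8%, 19.8%, 14.3% and 13.8%. For the share of member UMIs, the cell medians were 14.9%, 5.79%, 6.12%, 6.89% and 8.35%. The 5th percentile of quiescent cells, 11.8%, lay above the 95th percentile at days 1, 2 and 4 (8.47%, 7.85% and 9.34%) and below that at day 14 (12.5%). Tenocyte-marked cells gave 15.8%, 5.96%, 6.32%, 7.05% and 8.35%, and mural-marked cells 15.8%, 5.89%, 6.71%, 7.33% and 8.89%. In the tercile of cells with the fewest UMIs the values were 16.8%, 6.71%, 6.61%, 7.26% and 9.65%, in the middle tercile 14.8%, 5.95%, 6.25%, 6.86% and 8.27%, and in that with the most 14.6%, 5.66%, 5.97%, 6.93% and 8.05%. The difference between the quiescent and the other libraries was thus present at a like size in both of these classes and in all 3 terciles.

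**Figure D3:**
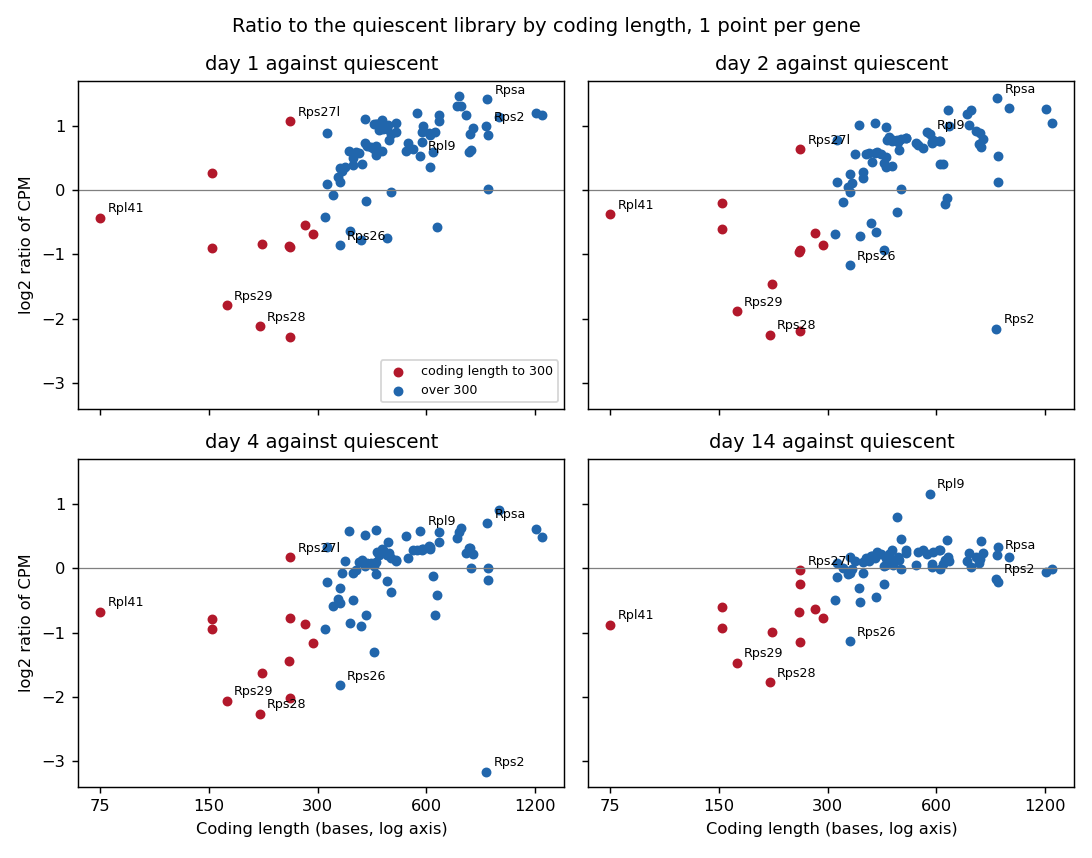
The log2 ratio of CPM to the quiescent library (vertical) against coding length in bases (horizontal, log axis) for 84 members, 1 point per gene and 1 panel per day, with red points for members of at most 300 coding bases. Red points lie mostly below 0 in every panel (median -0.85 at day 1 and -0.83 at day 14), and Rps2 lies far below the other longer members at days 2 and 4.

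Across the 84 members, coding length and the log2 ratio to quiescent had a Spearman correlation of 0.661 on day 1, with 0.631, 0.618 and 0.555 on days 2, 4 and 14. The genes share their libraries and the comparisons share the quiescent library, so these values describe 1 set of measurements. For day 4 against day 2 the correlation was of the other sign, -0.439 over 81 members. Over 23 members with under 10% of their words in other genes, of which 3 are short, it was 0.726 at day 1 and 0.396 at day 14.

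Outside the family the relation with coding length had the other sign at day 1. Over 653 other genes with at least 300 CPM in a library that correlation was -0.145. Other genes with at most 300 coding bases had a median log2 ratio of -0.05 at day 1 (191 genes, 17 higher and 39 lower by 2-fold) and 0.01 at day 14 (190 genes). Whole-transcript length gave a different view. The 36 other genes with transcripts under 500 bases had a day 1 median of -0.57, with 14 lower and none higher, close to the -0.62 of the 12 members that short. At day 14 these medians were -0.17 (38 genes) and -0.37. Under TMM scaling the 2 day 1 medians became 0.02 and -0.04.

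**Figure D4:**
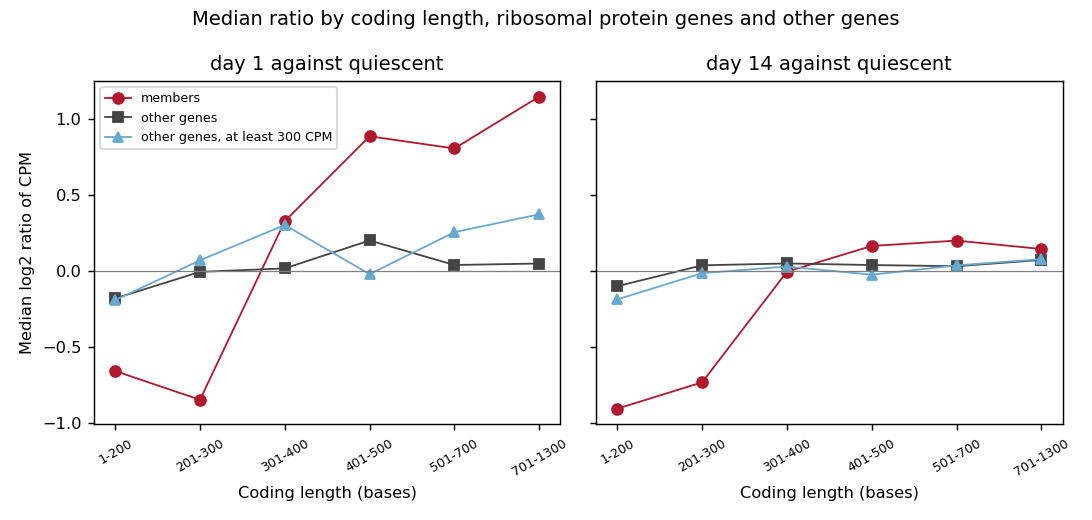
Median log2 ratio of CPM to quiescent at day 1 (left) and day 14 (right) in 6 bands of coding length (bases), for ribosomal protein genes (4 to 23 genes per band), other genes, and other genes with at least 300 CPM in a library. The members' line runs from -0.66 in the shortest band to 1.15 in the longest at day 1, while both lines for other genes stay between -0.19 and 0.37; 5 of the 6 member bands hold under 20 genes.

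Rps2 departed from all other members. This small-subunit gene (ENSMUSG00000044533, GRCm38 chromosome 17, 24718116 to 24721929), whose protein lies at the mRNA entry channel, was at 1731, 3472, 386, 191 and 1553 CPM in the same order of libraries. Its day 1 level was 2.00 times the quiescent one (1.97 to 2.04), as for many long members. It was then 4.48-fold lower than quiescent at day 2 (4.37 to 4.59) and 9.08-fold lower at day 4 (8.81 to 9.36).

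It was the only member under 1/2 of each of the other 3 libraries at both days 2 and 4, a condition met by 116 of 6599 genes (1.76%). The higher of its day 2 and day 4 values was 0.249 of the lowest other library. The nearest members outside the limit were Rps19bp1 at 0.611 and Rpl38 at 0.717. Rps19bp1 was at 47.4, 98.9, 24.3, 18.6 and 39.8 CPM, and with it 2 members met the condition at a 1.5-fold limit, as did 3.26% of all genes. Rpl13, at 4342, 8177, 3748, 2629 and 4757 CPM, was lower at both days than in each of the other libraries without reaching either limit, and under TMM scaling its day 2 level was above the quiescent one.

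In each marked class of cells Rps2 was highest at day 1 and lowest at days 2 and 4. Progenitor-marked cells had 1737, 3457, 389, 191 and 1571 CPM, tenocyte-marked cells 1964, 3284, 225, 203 and 1612, and mural-marked cells 901, 1836, 215, 158 and 983. The classes differed in detail, with day 4 near day 2 in tenocyte-marked cells and day 14 above quiescent in mural-marked cells. The day 2 values of these classes rest on 94 and 33 UMIs, and the differences between classes were not tested. Among day 2 progenitor-marked cells, the 970 in which G2/M genes had 3 or more UMIs were at 397 CPM of Rps2 and the 1466 others at 378 CPM, so both sets were low. The row of the copy Rps2-ps6 was also lowest at days 2 and 4, at 5.62, 10.6, 0.793, 0.559 and 8.16 CPM, but stood above quiescent at day 14. The copy Rpl13-ps3 was at 215, 200.5, 53.1, 36.4 and 244 CPM, low at days 2 and 4 as well. For Rps2, 78.09% of the 50-base words at the transcript end occur in other genes, and whether reads were assigned alike in all libraries was not tested.

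**Figure D5:**
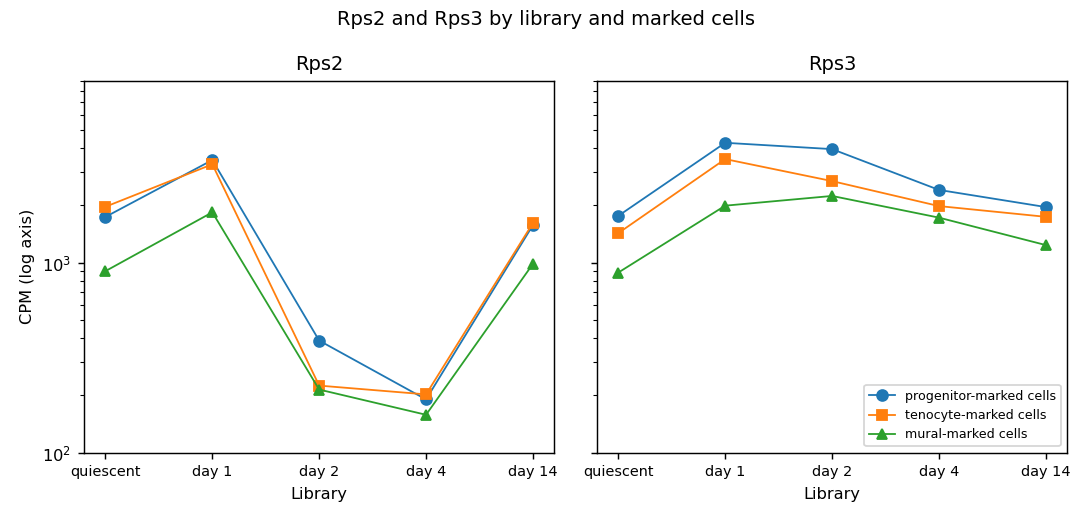
CPM on a log axis of Rps2 (left) and, for comparison, Rps3 (right) in each library, drawn separately for progenitor-marked, tenocyte-marked and mural-marked cells. Rps2 is at 158 to 389 CPM at days 2 and 4 in all 3 classes and is at 983 to 1612 CPM at day 14; Rps3 stays highest at days 1 and 2.

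At day 14 the members with the highest ratios were others than at days 1 and 2. Rpl9 was at 319, 464, 587, 481 and 716 CPM and 2.25 times the quiescent level at day 14 (2.15 to 2.34). Rpl23a, at the mouth of the exit tunnel, was at 401, 238, 315, 350.5 and 700.3 CPM, and Rpl10, needed for late assembly of the large subunit, at 156, 105, 144, 116 and 214 CPM. All 3 were highest at day 14. Rpl7a, at 660.3, 1026, 1053, 660.2 and 886 CPM, and Rpl29, at 477, 883, 829, 532 and 658 CPM, were level with or just above quiescent at day 4 and higher again at day 14. The transcript ends of Rpl9, Rpl23a and Rpl10 share 100%, 87.25% and 100% of words with other genes. Those of Rpl7a and Rpl29 share 80.48% and 52.19%. The copy rows Rpl23a-ps3 (513 CPM in quiescent, 394 at day 14) and Rpl9-ps6 (189 and 289 CPM) hold UMIs of the same families as Rpl23a and Rpl9. The values of Rpl9, Rpl23a, Rpl10, Rpl7a and Rpl29 are thus uncertain. In all, 50 members had at least 50% of such words in other genes and 20 had none.

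The 5 members that varied least had a ratio of the highest to the lowest library of 1.27 for Rpl6 and Rpl36a, 1.29 for Rpl34, 1.31 for Rpl21 and 1.33 for Rpl15. Rpl6 was at 805, 816, 887, 812 and 1021 CPM. All 5 had their values within a narrow band, and Rpl36a and Rpl21 share all their end words with other genes. Rplp0, Rps19, Rpl13 and Rps23 were among the members of highest mean CPM. Rps23, at the decoding centre, was at 3669, 5764, 4938, 3774 and 3781 CPM. Since a UMI counts 1 transcript end, these levels carry no division by length.

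Paralog pairs differed between libraries in their proportions. Rpl22l1, a paralog of Rpl22, supplied 55.4% of the pair's UMIs without injury (95% Clopper-Pearson interval 54.6 to 56.2) and 55.5% on day 1. Its share was 62.8% on day 2, 65.3% on day 4 (65.0 to 65.7) and 47.3% on day 14 (46.8 to 47.9). Rpl36al supplied 24.5%, 36.1%, 33.9%, 32.3% and 27.5% of its pair with Rpl36a. The share of Rps27l in its pair with Rps27 was 78.8%, 93.6%, 91.7%, 87.8% and 81.2%. Rpl7l1 stayed a small part of its pair with Rpl7, at 3.19%, 4.52%, 3.73%, 3.99% and 3.17%, and Rpl39l of its pair with Rpl39, at 0.768%, 1.73%, 1.01%, 0.827% and 0.581%. In its pair with Rps27, Rps27rt went the other way, at 73.6%, 51.4%, 53.6%, 53.8% and 59.7%. Each pair but that of Rps27rt thus leaned further to the paralog at day 2 than in the quiescent library. At day 14 the shares of Rpl22l1, Rpl39l and Rps27rt were under their quiescent ones, and that of Rpl7l1 was close to its own. Rpl36a and Rps27 share 100% of their end words with other genes, Rps27rt 88.45%, Rpl22l1 80.08% and Rpl7 74.1%, so the proportions of all these pairs are uncertain.

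The promoters of members were examined because most members had ratios above 1 together at day 1. RefSeq promoter sequences (GRCm38.p6) matched 64 of the 85 symbols. Below are windows of 50 bases, 30 before and 20 from the annotated start, for 3 members that were higher at day 1, 3 short members that were lower, and Rps2, with the longest run of C and T near the start in capitals.
Rpsa (chr9:120127736-120127785, plus strand): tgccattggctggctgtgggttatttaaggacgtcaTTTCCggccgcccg
Rps6 (chr4:86857348-86857397, minus strand): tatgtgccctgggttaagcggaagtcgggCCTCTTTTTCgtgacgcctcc
Rps3 (chr7:99483690-99483739, minus strand): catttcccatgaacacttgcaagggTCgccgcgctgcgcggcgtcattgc
Rps28 (chr17:33824543-33824592, minus strand): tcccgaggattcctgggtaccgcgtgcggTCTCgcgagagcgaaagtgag
Rpl38 (chr11:114668550-114668599, plus strand): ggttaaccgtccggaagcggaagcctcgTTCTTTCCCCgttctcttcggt
Rpl39 (chrX:37085203-37085252, minus strand): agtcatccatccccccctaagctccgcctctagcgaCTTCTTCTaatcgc
Rps2 (chr17:24720033-24720082, plus strand): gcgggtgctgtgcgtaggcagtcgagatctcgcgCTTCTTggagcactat

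The runs printed were 10 bases long in Rps6 and Rpl38, 8 in Rpl39, 6 in Rps2, 5 in Rpsa, 4 in Rps28 and 2 in Rps3, so neither set had the longer runs throughout in these examples. The RefSeq start of Rps2 lies inside the longer GENCODE gene given above. A run of at least 6 within 10 bases before and 20 bases after the start was present in 56.25% of members' promoters, beside 28.6% of all 27025 genes and 27.43% of the 5074 with at least 20 CPM. Among the 11 short and 53 longer members with a promoter it was 63.64% and 54.72%.

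Over the whole 300-base promoter, 250 bases before to 50 after the start, the letters CCGGAA, the core bound by ETS factors, occurred on either strand in 51.6% of members, 15.2% of all genes and 31% of those with at least 20 CPM. They were in 9 of 11 short (81.8%) and 24 of 53 longer members (45.3%). AAGATGG, the core of the YY1 motif, was in 14.1% of members, 6.48% of all genes and 8.34% of those with at least 20 CPM, and TATAAA in 9.38%, 14.2% and 7.59%. CTTTCC, which can overlap TTCCGG (the other strand of CCGGAA), was in 50% of members, 26.3% of all genes and 27.1% of those with at least 20 CPM. These are matches of letters and not measured sites, and the motifs were chosen with the values known.

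Other genes of the translation apparatus were also mostly higher at day 1. The ribosome biogenesis list had 24 of 26 members 2-fold higher and none lower at day 1, beside 14.8% and 24.3% of all genes, with a median log2 ratio of 2.11. Its day 14 median was 0.02, and -0.006 under TMM scaling. Nhp2, a protein of the H/ACA particles that modify rRNA, was at 61.5, 526, 235, 111 and 60.9 CPM, and Fbl, the methyltransferase fibrillarin, at 83.4, 546, 206, 117 and 88.3 CPM. Both were highest at day 1 and near the quiescent level at day 14.

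For the lists that follow, the day 1 shares over all genes are the same 14.8% higher and 24.3% lower. Of initiation factors, 14 of 30 compared were 2-fold higher and none lower at day 1, with a median of 0.89, and of elongation factors 5 of 8, with a median of 1.16. The helicase gene Eif4a1 was at 492, 2390.5, 1472, 945 and 532 CPM, and Eif5a, which helps ribosomes over proline stretches, at 497, 3069, 1177, 605 and 484 CPM. Other genes with TOP messages had 6 of 9 higher and a median of 1.06, and Npm1, the nucleolar chaperone nucleophosmin, was at 425, 2563, 1483, 845 and 529 CPM. Of chaperones of ribosome import and assembly, 6 of 8 were higher, a list that also holds the member Rpl7l1 and Nap1l1 of the TOP list.

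Genes for proteins of the mitochondrial ribosome had 26 of 74 members 2-fold higher at day 1 and none lower, with a median of 0.80, beside 14.8% and 24.3% of all genes. At day 2 this list had 7 higher and 3 lower of 73 by 2-fold, beside 10.4% and 17.4% of all genes. At that limit the share of higher genes was no larger than the background. The day 2 median log2 ratio was nevertheless 0.67, against -0.05 for all genes. At a 1.5-fold limit 46 were higher and 5 lower, beside 24% and 30.6% of all genes. In this list 4 of 74 genes met the condition of low values at both days 2 and 4, beside 1.76% of all genes: Mrps34, Mrps24, Mrps26 and Mrpl3, the last 2 named after their values were seen. Mrps34 was at 49.9, 58.6, 7.38, 8.02 and 65.4 CPM, and Mrps24 at 31.0, 26.4, 5.30, 4.88 and 36.6 CPM. In the other 6 lists only Gar1 of the biogenesis list met it.

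Of the remaining components of the cytosolic ribosome outside the symbol rule, Gnb2l1, the 40S scaffold RACK1, was at 543, 1718, 1214, 782 and 673 CPM. Fau, which encodes a ribosomal protein fused to a ubiquitin-like domain, was at 29.3, 16.5, 15.3, 13.5 and 25.1 CPM. Gnb2l1 was 3.16 times its quiescent level at day 1 (3.07 to 3.26), and Fau stood below its own.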

How the data were processed

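Cells sorted for tdTomato were profiled with the 10x 3′ v2 chemistry, per the labels' protocols. What the authors deposited for each of the 5 libraries is a matrix of UMI counts. Per the submitters' processing notes Cell Ranger and mm10 were used; the sources used here name no version or annotation. Barcodes with at least 500 genes and at most 10% mitochondrial UMIs were kept, counts were summed per library and scaled to CPM, and no doublets were called. A gene was higher or lower at a 2-fold ratio with at least 20 CPM in either library; log2 ratios used a prior of 1 CPM. With 1 library a group there was no test: ratio intervals are exact conditional binomial 95% intervals (SciPy 1.17.1) and cover counting error only. Scalings from edgeR 4.0.16 (TMM) and DESeq2 1.42.0 were alternatives. The code was checked on simulated counts.

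Named genes were the 5 highest and 5 lowest log2 ratios of each day, the 5 highest mean CPM, the 5 steadiest, paralogs, genes low at days 2 and 4, several others (the stalk, Rpsa, Rps6, Rpl5, Rpl11, Rps27a, Rps19bp1), and up to 4 of each related list; Rps21, Rpl35, Rpl36, Rpl37, Rpl37a, Rpl41 and the copy rows were named after their values were seen. Members and lists were chosen with earlier results of these data known; the 300-base limit, length bands, marker limits of cell classes, and motifs were set after seeing values. Lengths came from GENCODE M21 (GRCm38; 27645 features matched). Genes sharing 50-base words within the last 300 bases of a transcript are uncertain, as multimapping reads may be lost or divided. Some genes that the rule would name are not reported here.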

Additional observations from a re-analysis of the deposited data

How the results depend on the processing

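The members' median log2 ratios kept their direction under each alternative run. Medians of other genes did not all: under TMM factors, other genes of at most 300 coding bases went from -0.05 to 0.54 at day 1, those with transcripts under 500 bases from -0.57 to 0.02, and the biogenesis list from 0.02 to -0.006 at day 14. TMM factors gave median log2 ratios of 1.24, 0.86, 0.27 (days 1, 2 and 4 against quiescent) and -0.58 (day 4 against day 2), with 54, 34 and 1 members higher. DESeq2 size factors gave 1.26, 0.91, 0.29 and -0.61, with 56, 36 and 1 higher. The medians of all genes moved as well, to 0.40, 0.23, 0.16 and -0.12 under TMM factors. Under DESeq2 size factors they were 0.43, 0.28, 0.18 and -0.15. A 1.5-fold limit gave 51 higher and 12 lower at day 1, 42 and 15 at day 2, 6 and 20 at day 4, 2 and 11 at day 14, 18 lower at day 4 against day 2, and 2 low at both days. Cells above 1 common lower limit of UMIs gave 0.62 at day 1 and 0.070 at day 4. Progenitor-marked cells gave 0.60, 0.54, 0.081 and 0.16 for days 1, 2, 4 and 14. The mean CPM of each cell gave 0.15 at day 4 and -0.41 for day 4 against day 2, with 0 members lower in the latter. Of alternatives chosen after seeing the data, tenocyte-marked cells gave 0.75, 0.39 and 0.21 for days 1, 2 and 14 and -0.31 for day 4 against day 2, mural-marked cells 0.56, 0.80, 0.49, 0.38 and -0.30 for all 5, and members with under 10% of words in other genes 0.75, 0.74 and 0.17 for days 1, 2 and 4.

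The share of UMIs, in library order, was 15.55%, 23.63%, 21.63%, 15.77% and 15.46% in totals without mitochondrially encoded genes, 15.54%, 23.14%, 21.23%, 15.48% and 16.02% in progenitor-marked cells, and 14.74%, 22.61%, 20.94%, 15.54% and 14.77% as the mean over cells. Without the cells of highest UMI number it was 15.07%, 23.15%, 15.34% and 15.11% in the quiescent, day 1, day 4 and day 14 libraries. Cells above 1 common lower limit gave 15.44%, 23.32% and 15.26% in the quiescent, day 1 and day 14 libraries, and every deposited barcode 15.04% at day 14. The cause of these changes was not tested.

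No paired analysis was possible because each time point was 1 library, which also leaves no replicate to omit. Depth was at least 8011891 UMIs in each library, so counting error was small for all but the lowest members, and the spread between mice is unknown.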
